A study of Mus musculus with 25 samples.

Results

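Macrophages and neutrophils sorted from the livers of mice fed DDC were compared across all genes, with attention to how cytokine, receptor, protease and metabolic genes were divided between both cell types. The comparison used 4 of the 25 RNA-seq libraries of the study: 2 labelled macrophage and 2 labelled neutrophil, all from wild-type mice of strain C57BL/6J 129SV after 1 week of DDC diet. The remaining immune libraries, 2 each of T cells, Ly6C-low monocytes and Ly6C-high monocytes from DDC-fed mice and of macrophages from mice on a normal diet, entered the same fit and helped to estimate the spread. The labels give neither the surface markers used to sort the cells nor whether the libraries of a group came from separate animals. The spread behind each p-value is thus that between the libraries at hand, and it could be technical.

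DDC is a porphyrinogenic feed that blocks haem synthesis, plugs small bile ducts with pigment and draws leukocytes into the portal tract. The resident macrophages of the liver, Kupffer cells, sit in the sinusoids, where they take up aged red cells, lipoproteins and particles and recycle haem iron. Neutrophils are short-lived granulocytes that arrive from the blood with granules full of proteases and antimicrobial proteins made earlier in the bone marrow. Both cells make cytokines of the interleukin-1 family, and the study addressed macrophages as a source of interleukin-6, a cytokine that signals through the shared receptor subunit gp130.

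Total counts were 10226692 and 12945663 in the macrophage libraries, against 8915836 and 3817794 in the neutrophil libraries. Log2 values of CPM (the usual per-million scaling of counts, here on TMM-scaled library sizes) plus 1 correlated with r = 0.952 over genes between the macrophage libraries and with r = 0.732 between the neutrophil libraries. The predicted gene Gm10800 took 0.318% and 1.80% of the counts in macrophages, against 1.64% and 19.0% in neutrophils, so neutrophil library 2 stood apart in depth and in this gene.

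The defining markers other than Ly6g were high in the libraries labelled for them, and Kupffer cell transcripts were also present in the neutrophil libraries. Ly6g, a neutrophil antigen, had 0.123 and 0.191 CPM in macrophages, against 37.3 and 0 CPM in neutrophils. Clec4f, a Kupffer cell lectin, had 9609 and 8138 CPM in macrophages, against 729 and 302 CPM in neutrophils. S100a9, a subunit of the neutrophil protein calprotectin, had 2.10 and 0 CPM in macrophages, against 6684 and 2402 CPM in neutrophils. For 15 Kupffer cell markers the level in neutrophil library 1 had a median of 13% of the macrophage mean (range 4.63 to 60%) and in neutrophil library 2 of 6.83% (0.272 to 40.6%). The same medians were 2.83% in Ly6C-low and 1.38% in Ly6C-high monocytes. Such transcripts were not particular to the neutrophil libraries. Vsig4 had 704 and 988 CPM in the T cell libraries, against 443 and 233 CPM in neutrophils. Cd5l had 1325 and 2123 CPM in the T cell libraries, against 934 and 223 CPM in neutrophils. Shares over the 15 markers were not computed for the T cell libraries. In the other direction, 19 neutrophil markers had a median of 0.644% (0 to 120%) and 0.731% (0 to 131%) of the neutrophil mean in the macrophage libraries. Fpr1 was the upper end of both ranges. The median share was larger for Kupffer cell markers in neutrophil libraries than for neutrophil markers in macrophage libraries, and the part of these transcripts in the fold changes was not tested. In bulk samples, fewer cells of a type and less RNA per cell cannot be told apart.

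Of 27759 genes tested with edgeR's quasi-likelihood test at a Benjamini-Hochberg adjusted p under 0.05, 145 (0.522%) were higher and 167 (0.602%) were lower in macrophages than in neutrophils. These 312 genes (1.12%) comprised 295 protein-coding genes, 138 higher and 157 lower, and at an unadjusted p under 0.05 there were 3644 genes. All 312 differed by more than 2-fold and had no overlap between the libraries of both groups. A lack of overlap given below for a called gene therefore adds nothing to its call. Over all tested genes the median log2 fold change was −0.09. The common biological coefficient of variation was 1.00, so many differences of several fold did not pass. Without macrophage library 1 the counts were 160 higher and 144 lower, and without macrophage library 2 they were 167 and 147. With neutrophil library 1 left out they were 2414 and 632, and without neutrophil library 2 they were 197 and 489. The share of called genes that were higher in macrophages was 46.5% with all libraries, 79.3% without neutrophil library 1 and 28.7% without neutrophil library 2, so the balance between both directions depended on the neutrophil libraries. It was 32.3% with median-of-ratios scaling, which shifted the median log2 fold change of all genes to −0.53, 28.8% with DESeq2, 19.4% with weighted limma voom and 12.2% in a fit of the 4 libraries alone. In that fit 5 of the 20 gene lists with a higher member still had one, as did 13 of the 20 lists with a lower member.

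**Figure D1:**
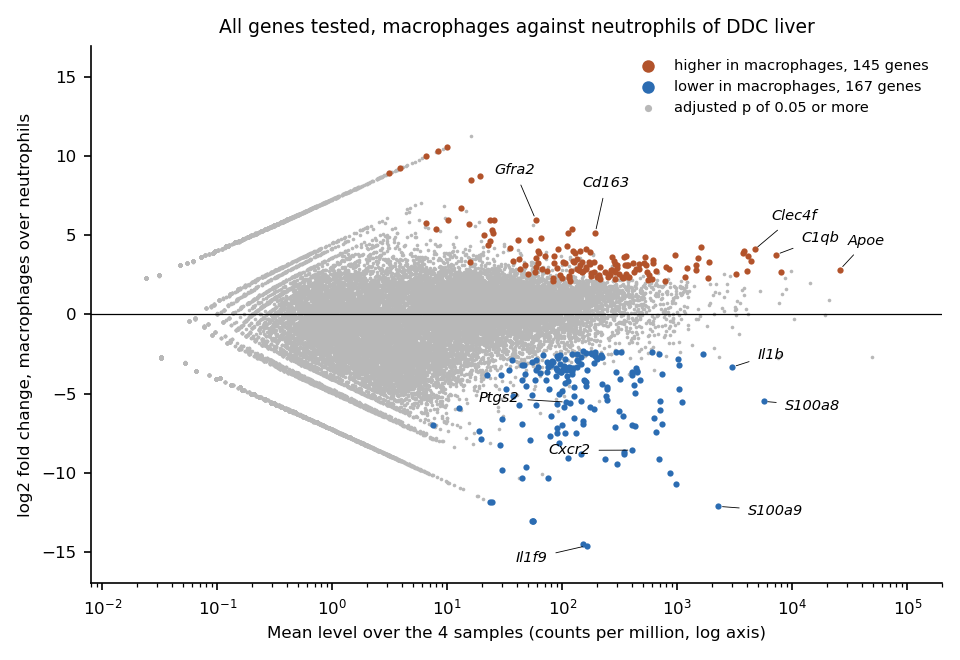
Log2 fold change of macrophages over neutrophils (vertical axis) against the mean level of each of the 27759 tested genes (horizontal axis, log scale in CPM), with the 145 genes higher and the 167 genes lower in macrophages coloured. Among the labelled genes, Il1f9 (−14.62) and S100a9 (−12.13) lie farthest below 0.

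Genes of Kupffer cells and of macrophages in general were on the higher side. Of 16 Kupffer cell markers tested, 11 were higher and none lower, with a median log2 fold change of 3.25, and all 16 had both macrophage libraries above both neutrophil libraries (22.7% of all tested genes did). Of 15 general macrophage markers, 9 were higher and none lower (median 2.78). The fit of the 4 libraries alone had 1 higher Kupffer cell marker and no higher general macrophage marker. Fcna, which encodes the serum lectin ficolin-A, had 3172 and 2878 CPM in macrophages, against 209 and 102 CPM in neutrophils (log2 fold change 4.28, SE 0.58, adjusted p = 0.00129). Clec4f, at chr6:83644542-83656187 on the minus strand, differed by 4.11 on the log2 scale (SE 0.58, adjusted p = 0.00178). Both macrophage libraries lay far above both neutrophil libraries for these genes. Vsig4, a complement receptor, had 3721 and 3104 CPM in macrophages, against 443 and 233 CPM in neutrophils (3.33, SE 0.54, adjusted p = 0.00398). Timd4, a receptor for phosphatidylserine on dying cells, had 523 and 510 CPM in macrophages, against 60.7 and 54.6 CPM in neutrophils (3.16, SE 0.60, adjusted p = 0.0125). Adgre1, which encodes F4/80, had 969 and 953 CPM in macrophages, against 141 and 83.4 CPM in neutrophils (3.10, SE 0.57, adjusted p = 0.0105). Cd14, the lipopolysaccharide co-receptor, ran the other way at 446 and 799 CPM in macrophages, against 5987 and 1946 CPM in neutrophils, and its adjusted p was 0.0526 with all libraries. It was the 1 general macrophage marker with a negative fitted value, and 1 marker of this list was lower in 9 of 13 alternative settings.

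Among the largest fold changes on the higher side was that of Gfra2, a receptor of the GDNF family, with 102 and 129.7 CPM in macrophages, against 3.26 and 0.209 CPM in neutrophils (5.98, SE 0.94, adjusted p = 0.00356). B3galnt1, a glycosyltransferase, had 55.4 and 44.9 CPM in macrophages, against 1.44 and 0 CPM in neutrophils (6.00, SE 1.35, adjusted p = 0.0383). Its log2 fold change was 11.89 without neutrophil library 1, since neutrophil library 2 held no count. Abcg3, an ATP-binding cassette transporter, had 237 and 303 CPM in macrophages, against 25.3 and 7.32 CPM in neutrophils (4.04, SE 0.64, adjusted p = 0.00372). Chd3, a chromatin remodelling ATPase, had 78.5 and 53.7 CPM in macrophages, against 5.09 and 1.88 CPM in neutrophils (4.22, SE 0.80, adjusted p = 0.0125). The libraries of both groups did not overlap in these genes, which was a condition for naming them. Hspa1a, a stress-induced chaperone, had 315 and 163 CPM in macrophages, against 6.26 and 5.23 CPM in neutrophils (5.37, adjusted p = 0.005), and the lectin genes Cd209f and Cd209g had log2 fold changes of 5.13 and 4.81. These 3 genes, and the guanylate-binding protein gene Gbp8 (4.11, and 6.55 without neutrophil library 1), have near-identical neighbours with which reads may be shared, so their values are uncertain. Mean levels in Ly6C-low and Ly6C-high monocytes were 176% and 227% of the macrophage mean for Hspa1a. They were 90.4% and 27.5% for Chd3, 55.7% and 47.5% for Abcg3, 22.5% and 13.2% for B3galnt1, and 12.1% and 2.1% for Gfra2. Of the 145 higher genes, 83 had all monocyte libraries above both neutrophil libraries, and 105 had all of them below both macrophage libraries. Folr2, a folate receptor of resident macrophages, had 109 and 48.9 CPM in macrophages, against 3.65 and 2.30 CPM in neutrophils (4.71, SE 0.90, adjusted p = 0.0132), and its adjusted p was 0.233 without macrophage library 1.

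Promoters are printed here for 2 lectin genes of the Kupffer cell list and 2 C1q genes, picked with their values known as abundant genes that were higher in macrophages. The capitals mark AGGAAGT (or ACTTCCT on the other strand), the core of sites bound by PU.1, the factor that directs macrophage development. The sequences are from RefSeq (GRCm38.p6), run 5′ to 3′ on the strand of the gene and cover 250 bases before to 50 bases after the start. They lie at chr6:83656067-83656366 for Clec4f, chr2:25627925-25628224 for Fcna, chr4:136886151-136886450 for C1qb and chr4:136892865-136893164 for C1qc, all on the minus strand.
Clec4f: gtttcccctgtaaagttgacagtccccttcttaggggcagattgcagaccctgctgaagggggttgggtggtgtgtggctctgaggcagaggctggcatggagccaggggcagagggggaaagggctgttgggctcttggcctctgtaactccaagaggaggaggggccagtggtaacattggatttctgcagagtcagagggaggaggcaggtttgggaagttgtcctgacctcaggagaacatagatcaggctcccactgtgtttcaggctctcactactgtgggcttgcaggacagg
Fcna: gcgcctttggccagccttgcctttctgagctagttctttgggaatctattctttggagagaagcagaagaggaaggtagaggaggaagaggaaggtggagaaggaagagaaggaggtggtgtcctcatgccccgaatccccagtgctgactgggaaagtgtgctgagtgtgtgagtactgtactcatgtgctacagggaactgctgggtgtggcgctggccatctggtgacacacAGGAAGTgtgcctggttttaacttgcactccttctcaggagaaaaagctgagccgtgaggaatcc
C1qb: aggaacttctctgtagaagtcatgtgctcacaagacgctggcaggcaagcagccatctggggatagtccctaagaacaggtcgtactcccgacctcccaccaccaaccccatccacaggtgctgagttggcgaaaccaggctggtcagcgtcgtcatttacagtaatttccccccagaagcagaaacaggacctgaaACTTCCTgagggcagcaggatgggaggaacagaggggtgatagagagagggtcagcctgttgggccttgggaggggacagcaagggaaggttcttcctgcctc
C1qc: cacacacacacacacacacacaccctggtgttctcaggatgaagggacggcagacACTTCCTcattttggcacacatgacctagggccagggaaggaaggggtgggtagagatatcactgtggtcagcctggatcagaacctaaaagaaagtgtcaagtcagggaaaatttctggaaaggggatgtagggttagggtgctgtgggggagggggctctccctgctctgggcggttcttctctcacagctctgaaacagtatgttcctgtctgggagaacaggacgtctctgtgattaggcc
Fcna, C1qb and C1qc had 1 match each, 15, 53 and 195 bases before the start, and these letters are not in the Clec4f window. Of 134 promoters of 110 genes higher in macrophages, 15.7% held this motif on either strand, against 17.5% of 200 promoters of 142 lower genes, 9.16% of those of all tested genes and 9.35% of all 32851 promoters of the table. A match is a description and not a bound site.

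The lower side held neutrophil markers and granule genes. Of 20 neutrophil markers, 15 were lower in macrophages and none higher, with a median log2 fold change of −7.04, and 18 of 20 had both neutrophil libraries above both macrophage libraries (18.3% of all tested genes did), and 9 of 19 were lower in the fit of the 4 libraries. S100a9, at chr3:90692632-90695721 on the minus strand, differed by −12.13 (SE 1.42, adjusted p = 0.000369). Its partner S100a8 had 285 and 204 CPM in macrophages, against 15480 and 6563 CPM in neutrophils (−5.49, SE 0.67, adjusted p = 0.000521). Retnlg, a resistin-like secreted protein, had 2.10 and 0.286 CPM in macrophages, against 3225 and 674 CPM in neutrophils (−10.71, SE 1.48, adjusted p = 0.00143). Csf3r, the receptor for granulocyte colony-stimulating factor, had 52.4 and 41.0 CPM in macrophages, against 2937 and 1328 CPM in neutrophils (−5.51, SE 0.65, adjusted p = 0.000375). Neutrophil library 2 was below neutrophil library 1 in each of these genes, and both were far above the macrophages. Ly6g, the antigen most used to sort mouse neutrophils, had 0.123 and 0.191 CPM in macrophages, against 37.3 and 0 CPM in neutrophils, which is 3 against 286 counts, a ratio of 143 with a 95% counting interval of 48.3 to 695 (adjusted p = 0.304). All neutrophil counts of Ly6g came from library 1, and its fitted log2 fold change was 3.70 without that library. The lowest adjusted p among the 15 largest falls was that of Cyp4f18, a cytochrome P450 that hydroxylates leukotriene B4, with 1.48 and 3.24 CPM in macrophages, against 2133 and 605 CPM in neutrophils (−9.16, SE 0.82, adjusted p = 6.87e-05).

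Of 24 granule and antimicrobial genes tested, 12 were lower and none higher in macrophages (median −6.48), and 7 of 22 were lower in the fit of the 4 libraries. Camp, which encodes the cathelicidin precursor, had 0 and 0 CPM in macrophages, against 343 and 266 CPM in neutrophils, at least 1943-fold lower with a floor of 3 counts over both macrophage libraries (adjusted p = 0.0299). Ltf, the iron-binding lactoferrin of secondary granules, had 0 and 0.191 CPM in macrophages, against 226 and 71.7 CPM in neutrophils. That is 2 against 2076 counts, a ratio of 1552 with a 95% counting interval of 429 to 12822 (adjusted p = 0.00363). Ngp, neutrophilic granule protein, had 1.73 and 0 CPM in macrophages, against 504 and 426 CPM in neutrophils (−9.12, SE 2.07, adjusted p = 0.0431). Chil1, a chitinase-like protein, had 0 and 1.62 CPM in macrophages, against 990 and 208 CPM in neutrophils (−9.44, SE 1.77, adjusted p = 0.0116). Padi4, the enzyme that citrullinates histones in neutrophil extracellular traps, had 0 and 0 CPM in macrophages, against 141 and 79.5 CPM in neutrophils, at least 729.6-fold lower (adjusted p = 0.00271). The macrophage libraries were at or near 0 for all of these, and the neutrophil libraries did not overlap them. Where 1 macrophage library held all counts of a gene, leaving it out gave fitted log2 fold changes of −18.45 (S100a9) and −15.18 (Ngp) without macrophage library 1 and −15.48 (Chil1) without macrophage library 2, values that depend on the prior count.

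Primary (azurophil) granule genes, made at the promyelocyte stage, were at the limit of detection in both cell types. Mpo, myeloperoxidase, had 0.247 and 0.0953 CPM in macrophages, against 0 and 0.627 CPM in neutrophils, and Prtn3 had 1.11 and 0 CPM in macrophages, against 3.39 and 1.05 CPM in neutrophils. Elane, neutrophil elastase, had 0 and 9 counts in macrophages, against 7 and 0 counts in neutrophils, and was too low to be tested. Lyz2, lysozyme, was among the most abundant transcripts of both cells, at 22357 and 22813 CPM in macrophages, against 8767 and 2634 CPM in neutrophils (adjusted p = 0.233). Lcn2 and Hp, which hepatocytes also make, had 51.2 and 6.76 CPM and 643 and 45.8 CPM in macrophages, against 379 and 110.2 CPM and 2603 and 907 CPM in neutrophils, and neither passed. The hepatocyte marker sum moved with them within macrophages, at 5213 and 594 CPM, against 1611 and 971 CPM in neutrophils.

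S100a9 and 3 granule genes are shown by their promoters because C/EBP factors are known to act on this gene group during granulocyte maturation. The capitals mark TTGCNNAA, a C/EBP core, on either strand. The windows are chr3:90695672-90695971 (minus strand) for S100a9, chr9:109849407-109849706 (minus strand) for Camp, chr9:110419558-110419857 (plus strand) for Ngp and chr9:111019042-111019341 (plus strand) for Ltf, from RefSeq on GRCm38.p6.
S100a9: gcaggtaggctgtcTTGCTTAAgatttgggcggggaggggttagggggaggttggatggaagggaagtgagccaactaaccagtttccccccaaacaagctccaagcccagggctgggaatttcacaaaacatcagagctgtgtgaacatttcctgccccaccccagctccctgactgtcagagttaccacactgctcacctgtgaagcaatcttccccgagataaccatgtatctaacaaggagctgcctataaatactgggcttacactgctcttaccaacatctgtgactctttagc
Camp: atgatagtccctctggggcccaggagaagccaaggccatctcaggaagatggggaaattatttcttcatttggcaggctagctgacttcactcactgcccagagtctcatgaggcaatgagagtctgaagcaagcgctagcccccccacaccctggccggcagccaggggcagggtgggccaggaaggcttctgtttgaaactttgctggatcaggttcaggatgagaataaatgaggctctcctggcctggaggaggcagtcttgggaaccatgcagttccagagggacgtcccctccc
Ngp: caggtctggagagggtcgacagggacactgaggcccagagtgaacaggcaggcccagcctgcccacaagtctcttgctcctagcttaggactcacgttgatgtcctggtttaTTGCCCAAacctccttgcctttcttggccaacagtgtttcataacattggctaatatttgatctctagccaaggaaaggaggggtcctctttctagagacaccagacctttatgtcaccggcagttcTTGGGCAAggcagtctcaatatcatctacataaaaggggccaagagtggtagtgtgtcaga
Ltf: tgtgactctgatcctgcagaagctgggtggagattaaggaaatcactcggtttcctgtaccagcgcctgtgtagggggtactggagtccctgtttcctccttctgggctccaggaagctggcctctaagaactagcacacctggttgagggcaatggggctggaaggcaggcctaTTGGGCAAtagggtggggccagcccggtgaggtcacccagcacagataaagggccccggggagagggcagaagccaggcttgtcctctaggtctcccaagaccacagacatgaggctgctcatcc
Matches began 236 bases before the start in S100a9, 138 and 11 bases before it in Ngp and 75 bases before it in Ltf, with none in the Camp window. The motif was in 5 of the 11 promoters of granule genes lower in macrophages (45.5%), in 17% of the 200 promoters of all lower genes, in 8.21% of the 134 promoters of higher genes and in 10.2% of those of all tested genes. These shares describe the windows and were not tested.

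**Figure D2:**
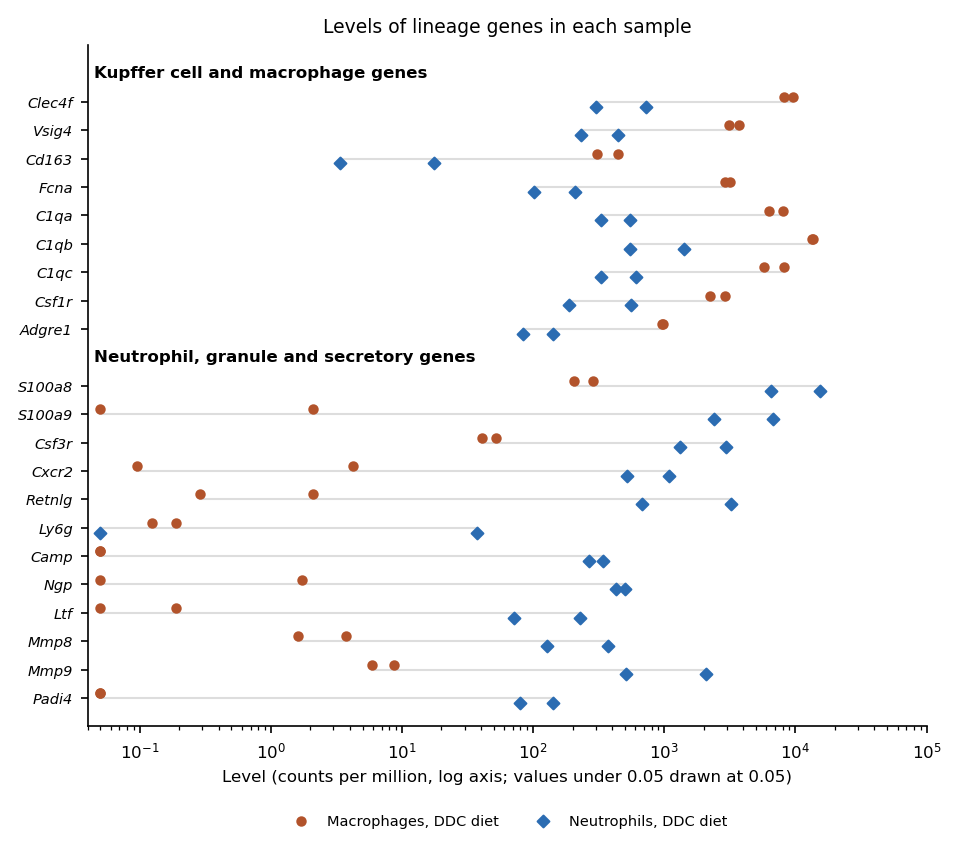
Level of lineage genes (horizontal log axis in CPM, values under 0.05 drawn at 0.05) in each of the 2 macrophage libraries (circles) and 2 neutrophil libraries (diamonds), with a grey line over the range of each gene. Clec4f and Fcna lie far higher in macrophages than in neutrophils, whereas S100a9 and Camp are at or near 0 in macrophages.

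Markers of other cell types were compared between both groups. A lack of calls does not show absence, since a cell type present in both groups would give none. None of the 12 T cell, 8 B cell, 8 NK cell, 10 dendritic cell, 16 hepatocyte, 12 stellate cell and 7 cholangiocyte markers tested passed in either direction, and 2 or 3 members of each of the T, B, NK and dendritic lists and 2 hepatocyte markers were called higher without neutrophil library 1. At an unadjusted edgeR p under 0.05 there were 0 to 3 in each list, and DESeq2 called 0 to 2 and weighted voom 0 or 1 in each. Of all 27759 tested genes, 1.12% were called by edgeR with all libraries and 3644 had such an unadjusted p. Cd3e, of T cells, had 3.45 and 0.191 CPM in macrophages, against 0 and 0 CPM in neutrophils. Alb, of hepatocytes, had 914 and 109 CPM in macrophages, against 390.3 and 237 CPM in neutrophils. Markers of sinusoidal endothelium differed. All 12 were lower in macrophages by fitted value (median −2.58), and Oit3, Kdr, Bmp2 and Egfl7 passed, although none did in the fit of the 4 libraries. Of all tested genes, 44.2% had a positive fitted value. Their summed level was 844 and 681 CPM in macrophages, against 4433 and 1538 CPM in neutrophils. Kdr, a receptor for vascular endothelial growth factor, had 30.6 and 31.6 CPM in macrophages, against 375 and 111 CPM in neutrophils (−2.97, SE 0.63, adjusted p = 0.0280). Stab2, a defining receptor of these cells, had 214 and 225 CPM in macrophages, against 570 and 202 CPM in neutrophils (adjusted p = 0.520). Without macrophage library 2 none of these markers passed (adjusted p 0.105 for Oit3, 0.0545 for Kdr, 0.169 for Bmp2 and 0.169 for Egfl7), and without neutrophil library 2 there were 8. Without macrophage library 1 the adjusted p was 0.0565 for Kdr and 0.0704 for Egfl7, and the log2 fold change of Kdr was −1.97 without neutrophil library 1. What part endothelial RNA had in other genes lower in macrophages was not tested.

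Of 30 interleukin and inflammatory cytokine genes tested, 6 were lower and 1 was higher in macrophages (median −1.13), and 1 was lower and none higher in the fit of the 4 libraries. With all libraries, 0.602% of all tested genes were lower and 0.522% higher, the background for this list and for those below. This background does not apply to list counts with a library left out, here, above or below. The total of called genes then changed as well. The lower ones included Il1b, Il1rn and Il1f9 of the interleukin-1 family. Il1f9, which encodes interleukin-36 gamma, had 0 and 0 CPM in macrophages, against 471 and 179 CPM in neutrophils, at least 2224-fold lower (adjusted p = 0.00359). Il1b, at chr2:129364570-129371139 on the minus strand, had 353 and 736 CPM in macrophages, against 8359 and 2549 CPM in neutrophils (−3.33, SE 0.70, adjusted p = 0.0265). Il1rn, the secreted antagonist of the same receptor, had 197 and 187 CPM in macrophages, against 1400 and 621 CPM in neutrophils (−2.40, SE 0.55, adjusted p = 0.0429). Agonist and antagonist were therefore both lower in macrophages, with no overlap between the groups. Il1a had 114 and 247 CPM in macrophages, against 338 and 73.6 CPM in neutrophils, so its libraries overlapped (−0.19, SE 0.66, adjusted p = 0.933), and its fitted sign was positive without macrophage library 1 (0.22) and without neutrophil library 1 (1.17). Il18 had 152 and 175 CPM in macrophages, against 68.9 and 33.2 CPM in neutrophils (1.67, SE 0.54, adjusted p = 0.184). Il18bp, the soluble antagonist of interleukin-18, had 1142 and 1144 CPM in macrophages, against 253 and 84.9 CPM in neutrophils (2.76, SE 0.65, adjusted p = 0.0479), and was the 1 member that rose. The call of Il1rn was lost without macrophage library 1 (adjusted p = 0.121) and without macrophage library 2 (adjusted p = 0.137). When neutrophil library 1 was left out, 3 members were higher.

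Members of the tumour necrosis factor superfamily and a colony-stimulating factor were also lower. Csf1, the growth factor of macrophages, had 8.63 and 5.43 CPM in macrophages, against 407 and 88.7 CPM in neutrophils (−5.14, SE 1.12, adjusted p = 0.0318). Its receptor Csf1r had 2212 and 2906 CPM in macrophages, against 559 and 186 CPM in neutrophils (2.78, SE 0.58, adjusted p = 0.0256). Ligand and receptor thus lay on opposite sides, with no overlap for either. Ltb, lymphotoxin beta, had 49.1 and 25.2 CPM in macrophages, against 1468 and 143 CPM in neutrophils (−4.44, SE 0.85, adjusted p = 0.0140), and −2.09 without neutrophil library 1. Tnfsf14, the ligand LIGHT, had 0 and 0.286 CPM in macrophages, against 65.5 and 11.9 CPM in neutrophils. Its 3 against 559 counts give a ratio of 279 with a 95% counting interval of 94.8 to 1355 (adjusted p = 0.0319), and its adjusted p was 0.171 without macrophage library 1. Tnf had 20.1 and 55.5 CPM in macrophages, against 201 and 45.0 CPM in neutrophils, and the libraries overlapped (adjusted p = 0.407). Il10, an anti-inflammatory cytokine, had 18.5 and 50.1 CPM in macrophages, against 0.913 and 4.81 CPM in neutrophils (3.60, SE 1.47, adjusted p = 0.321).

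None of the cytokines that signal through gp130 passed in either direction, with 7 of 8 tested (median 0.44, −0.21 with median-of-ratios scaling). Il6, at chr5:30013114-30019981 on the plus strand, had 4.56 and 18.1 CPM in macrophages, against 0 and 0 CPM in neutrophils. Its 227 against 0 counts put it at least 50.6-fold higher in macrophages with a floor of 3 counts over both neutrophil libraries, and the adjusted p was 0.0675. Over 13 alternative settings the adjusted p of Il6 ran between 0.000748 (DESeq2) and 0.349 (without macrophage library 2), and it passed in 3 of them, with DESeq2, without a filter on low counts and without the T cell libraries. Osm, oncostatin M, ran the other way, with 12.5 and 22.4 CPM in macrophages, against 204 and 94.5 CPM in neutrophils (−3.10, SE 1.12, adjusted p = 0.251). It passed without neutrophil library 2 (adjusted p = 0.0232) and without a filter on low counts (adjusted p = 0.000362), and stood at the threshold with weighted voom. For neither gene did the groups overlap. Of all tested genes, 22.7% had macrophages above without overlap, as Il6 did, and 18.3% had neutrophils above, as Osm did. Clcf1 had 13.2 and 13.3 CPM in macrophages, against 5.61 and 14 CPM in neutrophils, and Il27 had 6.41 and 2.48 CPM, against 1.96 and 0.418 CPM. At an unadjusted p under 0.05 edgeR gave 2 members, while DESeq2 called 1 higher and weighted voom 1 lower. Over all 27759 tested genes these numbers were 3644, 730 and 336. Lif, Il11 and Ctf1 stayed at or below 5.02 CPM in all 4 macrophage and neutrophil libraries of DDC liver. Il6st, the gp130 subunit itself, had 86.3 and 62.8 CPM in macrophages, against 301 and 63.6 CPM in neutrophils (adjusted p = 0.383). Per kilobase of exon, the mean of Il6 in macrophages was 4.67 CPM, against 65.7 CPM for Osm and 2860 CPM for Il1b in neutrophils.

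**Figure D3:**
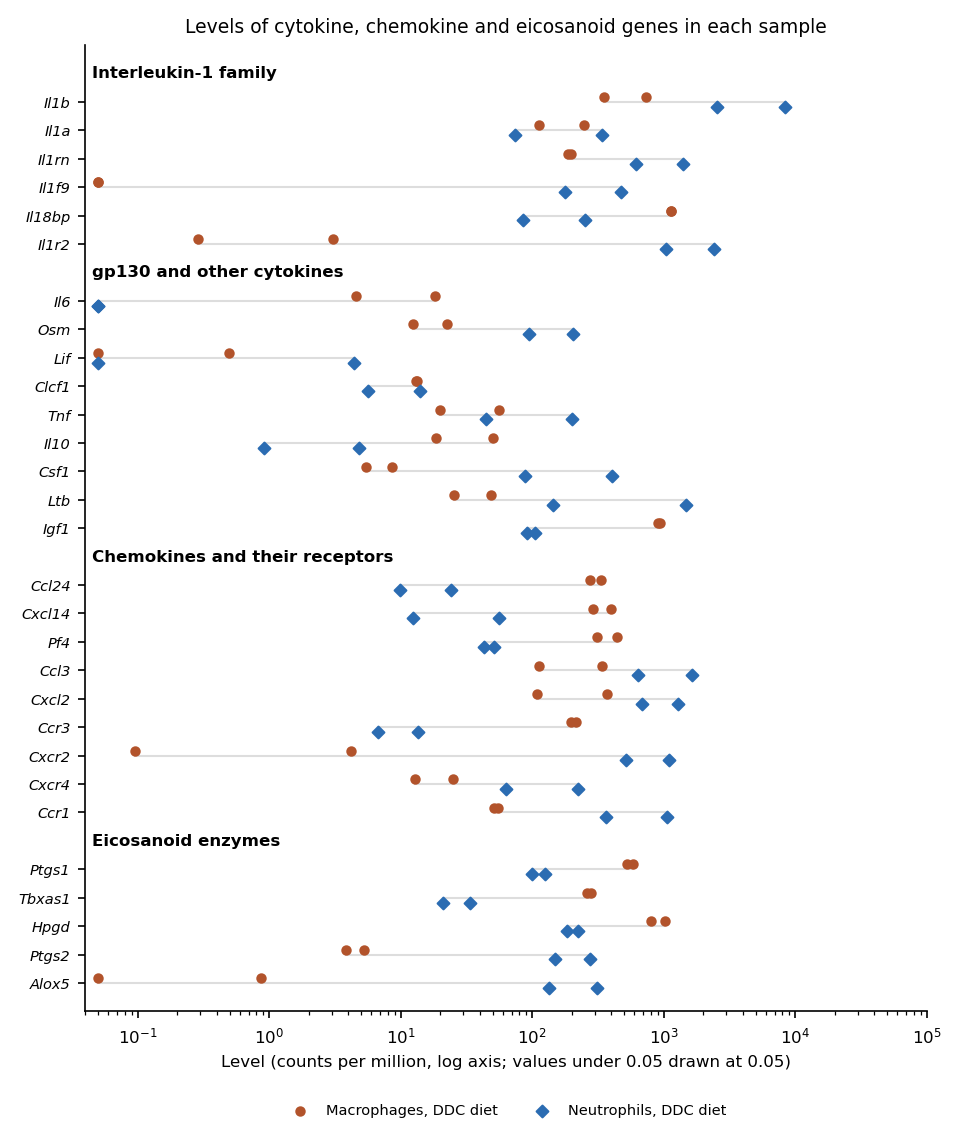
Level of cytokine, chemokine, receptor and eicosanoid genes (horizontal log axis in CPM, values under 0.05 drawn at 0.05) in the 2 macrophage libraries (circles) and 2 neutrophil libraries (diamonds). Il1b, Il1rn, Csf1 and Osm lie lower in both macrophage libraries, Il18bp and Il10 lie higher, and of the 4 libraries drawn Il6 has counts in the macrophage libraries alone.

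Among 25 chemokine ligands, 3 were higher and none lower (median 1.05), and 1 was higher in the fit of the 4 libraries. Ccl24, eotaxin-2, had 335 and 275 CPM in macrophages, against 24.0 and 9.83 CPM in neutrophils (4.17, SE 0.59, adjusted p = 0.00181). Cxcl14 had 396 and 289.9 CPM in macrophages, against 56.2 and 12.3 CPM in neutrophils (3.32, SE 0.66, adjusted p = 0.0179). Pf4, a chemokine of platelets and macrophages, had 309.5 and 440.0 CPM in macrophages, against 42.9 and 51.0 CPM in neutrophils (3.0, SE 0.52, adjusted p = 0.00659). These 3 ligands had no overlap. Neutrophil attractants and inflammatory ligands showed no call: Cxcl2 had 109 and 370 CPM in macrophages, against 1278 and 683 CPM in neutrophils (adjusted p = 0.225), Ccl3 had 113 and 338 CPM, against 1653 and 636 CPM (adjusted p = 0.112), and Cxcl1 had 57.0 and 138 CPM, against 46.6 and 0.209 CPM (adjusted p = 0.453). In the fit without neutrophil library 1, 10 ligands were higher and 1 lower, and without macrophage library 2 or neutrophil library 2 the counts were 4 and 2.

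Chemokine receptors split evenly, with 2 of 18 higher and 2 lower (median −0.14), against 1 and none in the fit of the 4 libraries and none and 4 with weighted voom. Ccr3, the receptor of Ccl24, had 218 and 197 CPM in macrophages, against 13.4 and 6.69 CPM in neutrophils (4.36, SE 0.74, adjusted p = 0.00563), so ligand and receptor were higher on the same side. Cxcr2, the receptor for Cxcl1 and Cxcl2, had 4.19 and 0.0953 CPM in macrophages, against 1091 and 519 CPM in neutrophils (−8.58, SE 1.56, adjusted p = 0.0107). Cxcr4, which retains neutrophils in the marrow, had 12.8 and 25 CPM in macrophages, against 223 and 62.9 CPM in neutrophils (−2.92, SE 0.67, adjusted p = 0.0429). The groups did not overlap in any of these 3 receptors. Leaving out a library changed Cxcr4, with adjusted p = 0.341 without macrophage library 1, 0.0660 without macrophage library 2 and 0.0639 and a log2 fold change of −1.86 without neutrophil library 1. Cxcr2 was at −12.92 without macrophage library 1. Without neutrophil library 1, 5 receptors were higher and 3 lower, and without neutrophil library 2, 2 were higher and 5 lower.

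Of 37 cytokine and growth factor receptors, 2 were higher and 4 lower (median −0.48), and none was higher and 3 lower in the fit of the 4 libraries. Il1r2, a decoy receptor for interleukin-1, had 3.08 and 0.286 CPM in macrophages, against 2414 and 1036 CPM in neutrophils (−10.03, SE 1.09, adjusted p = 0.000312). Il18rap, the accessory chain of the interleukin-18 receptor, had 3.58 and 5.81 CPM in macrophages, against 375 and 85.1 CPM in neutrophils (−5.61, SE 1.01, adjusted p = 0.00879). Fas, a death receptor, had 16.4 and 6.10 CPM in macrophages, against 211 and 120.5 CPM in neutrophils (−3.88, SE 0.75, adjusted p = 0.0144), with an adjusted p of 0.105 without macrophage library 2. Together with Csf3r, these receptors were lower with no overlap. Il21r had 22.3 and 9.15 CPM in macrophages, against 0.652 and 0 CPM in neutrophils (5.40, SE 1.28, adjusted p = 0.0491). Its adjusted p was 0.178 without macrophage library 1 and 0.0808 without neutrophil library 2, and its log2 fold change was 10.21 without neutrophil library 1. Without macrophage library 1 or neutrophil library 2, 1 receptor was higher. With neutrophil library 1 left out there were 9 higher and 7 lower, and without neutrophil library 2 there were 9 lower.

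Among 26 pattern recognition and lectin receptors, 4 were lower and none higher (median −1.14). Clec4d and Clec4e, lectins that sense fungal glycolipids and cell debris, had 7.40 and 8.0 CPM and 4.93 and 7.81 CPM in macrophages, against 869 and 467 CPM and 1328 and 365 CPM in neutrophils. Their log2 fold changes were −6.44 (SE 0.62, adjusted p = 0.000106) and −7.05 (SE 0.82, adjusted p = 0.000355). Clec5a had 8.26 and 9.24 CPM in macrophages, against 904 and 314 CPM in neutrophils (−6.12, SE 0.70, adjusted p = 0.000330). Trem1, which amplifies inflammatory signals, had 0.370 and 7.72 CPM in macrophages, against 792 and 348 CPM in neutrophils (−7.12, SE 1.33, adjusted p = 0.0116). None of the toll-like receptors tested passed, and Tlr4, which senses lipopolysaccharide, had 23.4 and 40.2 CPM in macrophages, against 53.6 and 39.5 CPM in neutrophils (adjusted p = 0.705). When neutrophil library 1 was left out, 4 receptors were higher and 6 lower, and without neutrophil library 2, 7 were lower.

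Scavenger and efferocytosis receptors, which take up lipoproteins, haemoglobin and dying cells, were mostly higher in macrophages where they passed. Of 21 tested, 9 were higher and 1 was lower (median 2.22), but none of 20 passed in the fit of the 4 libraries. Cd163, Cd5l, Timd4 and Vsig4 are also counted among the Kupffer cell markers, and Axl among the general macrophage markers. Cd163, the receptor for haemoglobin bound to haptoglobin, had 305 and 447 CPM in macrophages, against 17.5 and 3.35 CPM in neutrophils (5.16, SE 0.78, adjusted p = 0.00271). Axl, a receptor tyrosine kinase for dying cells, had 670.3 and 869 CPM in macrophages, against 102 and 104 CPM in neutrophils (2.90, SE 0.48, adjusted p = 0.00429). Itgb5, an integrin subunit, had 533 and 797 CPM in macrophages, against 82.0 and 68.2 CPM in neutrophils (3.15, SE 0.49, adjusted p = 0.00343). Cd5l, a secreted scavenger protein of tissue macrophages, had 8245 and 6958 CPM in macrophages, against 934 and 223 CPM in neutrophils (3.72, SE 0.65, adjusted p = 0.00712). The lower member was Cd300lf, an inhibitory receptor, with 68.8 and 132 CPM in macrophages, against 1893 and 841 CPM in neutrophils (−3.77, SE 0.61, adjusted p = 0.00398). The groups were separate in all 10. In the fit without neutrophil library 1 the counts were 13 higher and 2 lower.

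Complement genes were higher where they passed, with 5 of 13 higher and none lower (median 2.39), and none passed in the fit of the 4 libraries. C1qa, C1qb and C1qc are also general macrophage markers and C6 is also a Kupffer cell marker, so these lists are not separate results. The chains of C1q, which starts the classical pathway, stood out by level. C1qa had 8071 and 6265 CPM in macrophages, against 544 and 329 CPM in neutrophils (4.04, SE 0.63, adjusted p = 0.00323). C1qb had 13507 and 13436 CPM in macrophages, against 1413 and 547 CPM in neutrophils (3.78, SE 0.64, adjusted p = 0.00524), and C1qc had 8229 and 5751 CPM in macrophages, against 609.5 and 331 CPM in neutrophils (3.89, SE 0.60, adjusted p = 0.00321). All 3 chains lay in the same range of fold change. C6, a component of the membrane attack complex, had 429 and 384 CPM in macrophages, against 58.1 and 69.8 CPM in neutrophils (2.67, SE 0.55, adjusted p = 0.0228). Cfp, properdin, had 2854 and 2358 CPM in macrophages, against 523 and 85.3 CPM in neutrophils (3.10, SE 0.69, adjusted p = 0.0349) and had a log2 fold change of 4.8 without neutrophil library 1. C3, which hepatocytes also make, had 149 and 34.3 CPM in macrophages, against 390 and 175 CPM in neutrophils (adjusted p = 0.288).

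Of 27 Fc receptors, complement receptors and adhesion molecules, 3 were higher and 3 lower (median −0.11), against 1 and 1 in the fit of the 4 libraries and none and 5 with weighted voom. Siglec1, the sialoadhesin of resident macrophages, had 97.9 and 105 CPM in macrophages, against 4.31 and 3.35 CPM in neutrophils (4.72, SE 0.72, adjusted p = 0.00309). Vcam1 had 453 and 1031 CPM in macrophages, against 102 and 53.1 CPM in neutrophils (3.26, SE 0.60, adjusted p = 0.0102), and its adjusted p was 0.0524 without macrophage library 2. Itgam, which encodes CD11b, had 12.6 and 15.7 CPM in macrophages, against 281 and 63.6 CPM in neutrophils (−3.60, SE 0.68, adjusted p = 0.0125) and −2.30 without neutrophil library 1. No overlap was seen in these genes. Selplg, the ligand of selectins, was also lower (−2.50, SE 0.58, adjusted p = 0.0471), but its adjusted p was 0.0762 and 0.0773 without macrophage library 1 and 2 and its log2 fold change was −1.6 without neutrophil library 1. Fcgr1, the high-affinity receptor for IgG, had 273 and 328 CPM in macrophages, against 57.5 and 56.3 CPM in neutrophils (2.40, SE 0.57, adjusted p = 0.0488), with an adjusted p of 0.0571 and 0.150 without macrophage library 1 and 2. Without macrophage library 2, 1 member was higher. Without neutrophil library 1, 8 were higher, and without neutrophil library 2, 6 were lower.

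Genes of antigen presentation through MHC class II, which macrophages share with dendritic and B cells, were higher where they passed. Of 14 genes, 4 were higher and none lower (median 2.43). Both macrophage libraries lay above both neutrophil libraries in 11 of them, against 22.7% of all tested genes. H2-Aa had 5594 and 8551 CPM in macrophages, against 1433 and 642 CPM in neutrophils (2.77, SE 0.61, adjusted p = 0.0344). H2-Eb1 had 4415 and 6623 CPM in macrophages, against 1174 and 688 CPM in neutrophils (2.57, SE 0.57, adjusted p = 0.0362). Ciita, the transactivator of these genes, had 143 and 125 CPM in macrophages, against 28.7 and 32.2 CPM in neutrophils (2.14, SE 0.51, adjusted p = 0.0492). H2-DMa, which loads peptides, was higher by 2.21 (SE 0.51, adjusted p = 0.0429), and Cd74, the invariant chain, had 13738 and 19781 CPM in macrophages, against 3843 and 1170.2 CPM in neutrophils without passing (adjusted p = 0.0709). The summed level of the list was 40267 and 61120 CPM in macrophages, against 12602 and 4657 CPM in neutrophils. Monocytes held more than either macrophage library, at 74878 and 160777 CPM in Ly6C-low and 116439 and 73431 CPM in Ly6C-high monocytes. The calls near the threshold were unstable: the adjusted p of Ciita was 0.223 and 0.126 without macrophage library 1 and 2, and that of H2-DMa was 0.127 without macrophage library 2. The number of higher genes was 8 without macrophage library 1, 5 without macrophage library 2, 10 without neutrophil library 1, 7 without neutrophil library 2, 1 when the T cell libraries were left out of the fit, and none with weighted voom or in the fit of the 4 libraries.

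Lysosomal proteases that passed were higher in macrophages, and all but 1 of the extracellular or membrane proteases that passed were lower. Of 33 cathepsins and lysosomal hydrolases, 4 were higher and none lower (median 1.75), and none passed in the fit of the 4 libraries. Fitted values were positive in 30, against 44.2% of all tested genes. In 24 both macrophage libraries lay above both neutrophil libraries, against 22.7% of all tested genes. Ctsb had 14236 and 13573 CPM in macrophages, against 3065 and 1229 CPM in neutrophils (2.70, SE 0.58, adjusted p = 0.0299). Ctsc, which activates granule serine proteases, had 2767 and 2833 CPM in macrophages, against 386 and 77.8 CPM in neutrophils (3.59, SE 0.73, adjusted p = 0.0197). Ctsf had 183 and 128 CPM in macrophages, against 7.96 and 16.5 CPM in neutrophils (3.67, SE 0.69, adjusted p = 0.0116). Grn, progranulin, had 2262 and 2009 CPM in macrophages, against 413 and 141 CPM in neutrophils (2.94, SE 0.56, adjusted p = 0.0134). The macrophage libraries agreed closely in these genes and lay above both neutrophil libraries. Ctsd, with 3202 and 2516 CPM in macrophages, against 1849 and 601 CPM in neutrophils, did not pass (adjusted p = 0.334). The count of higher members was 7 without macrophage library 1 or 2, 21 without neutrophil library 1 and 6 without neutrophil library 2.

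Among 26 metalloproteinases and extracellular proteases, 5 were lower and 1 was higher (median −0.59), against 3 and none in the fit of the 4 libraries. Mmp9, the gelatinase stored in neutrophil granules (chr2:164940780-164955850, plus strand), had 8.76 and 5.91 CPM in macrophages, against 2062 and 506 CPM in neutrophils (−7.45, SE 1.73, adjusted p = 0.0479). Mmp8, neutrophil collagenase, had 1.6 and 3.72 CPM in macrophages, against 372 and 127 CPM in neutrophils (−6.53, SE 0.96, adjusted p = 0.00204). Mmp12, the elastase of macrophages (chr9:7344381-7369499, plus strand), had 489 and 463 CPM in macrophages, against 102 and 31.8 CPM in neutrophils (2.82, SE 0.59, adjusted p = 0.0244). These 3 matrix proteases had no overlap. Asprv1, an aspartic protease, had 2.34 and 0.953 CPM in macrophages, against 1184 and 180.3 CPM in neutrophils (−8.70, SE 1.32, adjusted p = 0.00321). The membrane proteases Adam8 (−3.53, SE 0.69, adjusted p = 0.0150) and Adam19 (−4.69, SE 0.96, adjusted p = 0.0227) were lower, with adjusted p = 0.0917 for Adam8 without macrophage library 1 and 0.175 for Adam19 without macrophage library 2. With neutrophil library 1 left out, 5 proteases were higher.

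Of 25 protease inhibitors, 1 was higher and 2 were lower (median 0.40, −0.17 with median-of-ratios scaling), against none and 1 in the fit of the 4 libraries. Wfdc17, a WAP-domain protein of macrophages, had 7942 and 8062 CPM in macrophages, against 1076 and 458 CPM in neutrophils (3.38, SE 0.59, adjusted p = 0.00710). Slpi, an inhibitor of elastase and cathepsin G, had 2.10 and 1.52 CPM in macrophages, against 247 and 67.1 CPM in neutrophils (−6.43, SE 0.92, adjusted p = 0.00183). Stfa2l1, a stefin whose near-identical neighbours may share its reads, had 0 and 0 CPM in macrophages, against 202 and 18.8 CPM in neutrophils, at least 816-fold lower (adjusted p = 0.00321). Macrophages were thus above neutrophils for 1 WAP-domain gene and below them for the other. Cst3, cystatin C, had 3534 and 3421 CPM in macrophages, against 2492 and 759 CPM in neutrophils (adjusted p = 0.411). When neutrophil library 1 was left out, 3 inhibitors were higher.

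**Figure D4:**
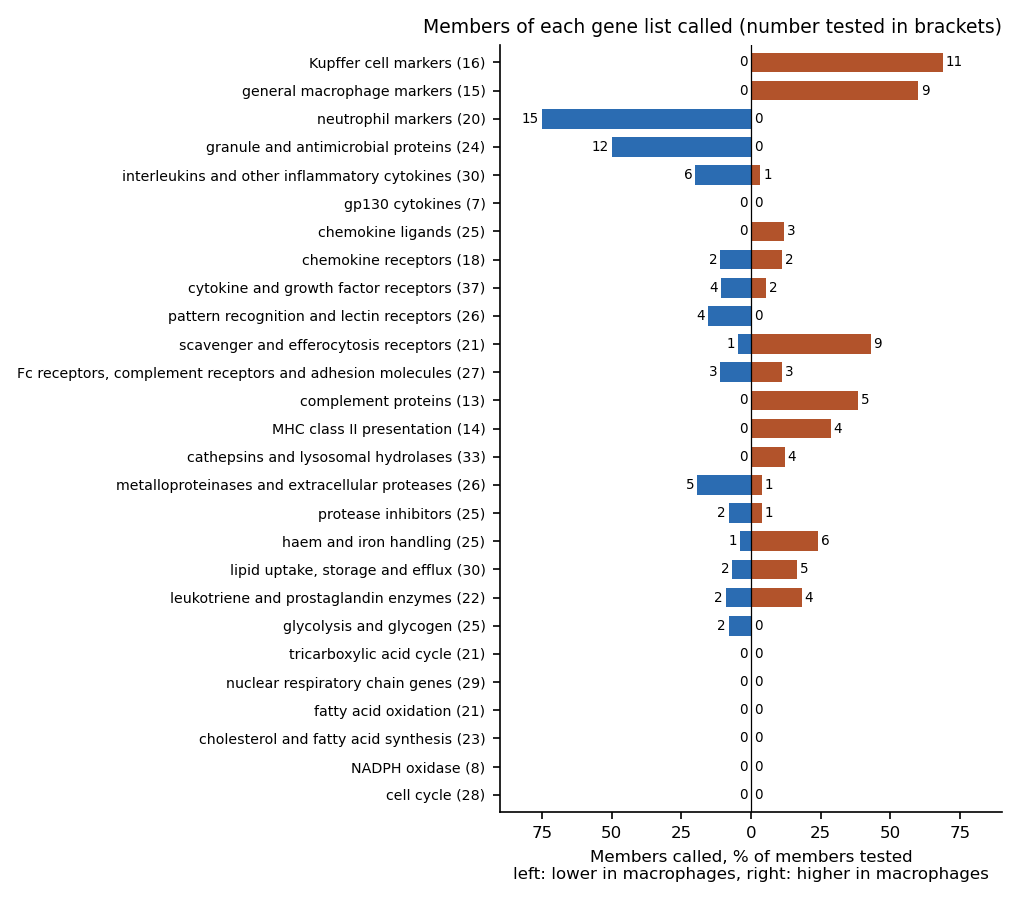
Share of the tested members of each gene list (horizontal axis, %) that were higher (right) or lower (left) in macrophages than in neutrophils at an adjusted p under 0.05, with the number of genes beside each bar and the number tested in brackets. Kupffer cell markers (11 higher) and scavenger receptors (9 higher) stand at the macrophage end, and neutrophil markers (15 lower) and granule genes (12 lower) at the other. Lists share members, such as Cd163, Cd5l, Timd4 and Vsig4 in both the Kupffer cell and the scavenger list. Of all tested genes, 0.522% were higher and 0.602% lower.

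Of 25 genes of haem and iron handling, 6 were higher and 1 lower (median 1.23), and none was higher and 1 lower in the fit of the 4 libraries. Slc40a1, ferroportin, the exporter of cellular iron, had 3193 and 3024 CPM in macrophages, against 775 and 465 CPM in neutrophils (2.33, SE 0.49, adjusted p = 0.0280). Hebp1, a haem-binding protein, had 643 and 594 CPM in macrophages, against 132 and 74.2 CPM in neutrophils (2.58, SE 0.52, adjusted p = 0.0202). Blvrb, a biliverdin reductase, had 1058 and 828 CPM in macrophages, against 225 and 65.0 CPM in neutrophils (2.70, SE 0.59, adjusted p = 0.0319). Together with Cd163 and the haemopexin receptor Lrp1, these genes had no overlap between groups. Slc48a1, which moves haem out of phagolysosomes, had 425 and 272 CPM in macrophages, against 71.8 and 74.9 CPM in neutrophils (2.25, SE 0.51, adjusted p = 0.0408), with an adjusted p of 0.399 and 0.0592 without macrophage library 1 and 2. Lrp1 was higher by 2.37 (SE 0.53, adjusted p = 0.0361), and its adjusted p was 0.0938 without macrophage library 2. Hmox1, the enzyme that opens the haem ring, had 1027 and 877 CPM in macrophages, against 305 and 169 CPM in neutrophils (2.00, SE 0.55, adjusted p = 0.0949) and passed without neutrophil library 1 (adjusted p = 0.00281). The lower member was Ltf, and the ferritin chain Fth1 had 10757 and 7821 CPM in macrophages, against 15223 and 7325 CPM in neutrophils (adjusted p = 0.827). Without macrophage library 1, 3 members were lower. The counts were 4 higher without macrophage library 2, 13 higher without neutrophil library 1, and 7 higher and 3 lower without neutrophil library 2.

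Of 30 genes of lipid uptake, storage and efflux, 5 were higher and 2 lower (median 1.05), and none of 28 passed in the fit of the 4 libraries. Apoe, the apolipoprotein of macrophage cholesterol efflux, had 42258 and 48562 CPM in macrophages, against 9991 and 2758 CPM in neutrophils (2.83, SE 0.67, adjusted p = 0.0480). Lpl, lipoprotein lipase, had 1229 and 1010.4 CPM in macrophages, against 189 and 45.8 CPM in neutrophils (3.25, SE 0.65, adjusted p = 0.0176). Nr1h3, the oxysterol receptor LXR alpha, had 886 and 744 CPM in macrophages, against 132 and 91.8 CPM in neutrophils (2.86, SE 0.55, adjusted p = 0.0141), and the lipoprotein receptor Scarb1 had 304 and 314 CPM in macrophages, against 42.9 and 18.0 CPM in neutrophils (3.34, SE 0.70, adjusted p = 0.0256). All 4 were higher in both macrophage libraries than in either neutrophil library. G0s2, an inhibitor of triglyceride lipase, had 32.6 and 10.2 CPM in macrophages, against 2356 and 433 CPM in neutrophils (−6.03, SE 1.04, adjusted p = 0.00612). Acsl1, an acyl-CoA synthetase, had 14.3 and 12.5 CPM in macrophages, against 132 and 140.1 CPM in neutrophils (−3.34, SE 0.63, adjusted p = 0.0121), with an adjusted p of 0.0884 and 0.121 without macrophage library 1 and 2. Of 12 genes of lipid-associated macrophages, Lpl alone passed (median 1.04), none did in the fit of the 4 libraries, and Trem2, a lipid sensor of such cells, had 169 and 248 CPM in macrophages, against 74.3 and 2.51 CPM in neutrophils (adjusted p = 0.249). In the fit without neutrophil library 1 the lipid group had 15 higher and 3 lower members and the lipid-associated group 6 higher and 2 lower. Without neutrophil library 2 the lipid group had 7 higher and 4 lower.

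Of 22 eicosanoid enzyme genes, 4 were higher and 2 lower (median 0.71), against 1 and 1 in the fit of the 4 libraries. Alox5, 5-lipoxygenase, which begins leukotriene synthesis, had 0.863 and 0 CPM in macrophages, against 311 and 134 CPM in neutrophils (−9.06, SE 1.22, adjusted p = 0.00125, and −14.10 without macrophage library 1). Its partner Alox5ap had 58.0 and 49.7 CPM in macrophages, against 275 and 92.6 CPM in neutrophils (adjusted p = 0.195). Ptgs2, the inducible cyclooxygenase, had 5.30 and 3.81 CPM in macrophages, against 277 and 148 CPM in neutrophils (−5.54, SE 0.72, adjusted p = 0.000846). Ptgs1, the constitutive cyclooxygenase, had 527 and 589 CPM in macrophages, against 126 and 100.4 CPM in neutrophils (2.30, SE 0.50, adjusted p = 0.0321). Both cyclooxygenases thus differed without overlap, in opposite directions. Tbxas1, thromboxane synthase, had 278 and 262 CPM in macrophages, against 33.5 and 21.1 CPM in neutrophils (3.30, SE 0.54, adjusted p = 0.00398). Hpgd, which inactivates prostaglandins, had 1018 and 809 CPM in macrophages, against 225 and 183 CPM in neutrophils (2.16, SE 0.50, adjusted p = 0.0428), and Pla2g15, a lysosomal phospholipase, was higher by 2.79 (SE 0.60, adjusted p = 0.0306). Without macrophage library 1 and 2 the adjusted p was 0.0660 and 0.127 for Ptgs1 and 0.202 and 0.0650 for Hpgd, which left 2 higher members each time. Without neutrophil library 2, 4 members were lower.

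In energy metabolism, calls were few, and they lay in glucose and lactate transport. Of 25 glycolysis and glycogen genes, 2 were lower and none higher (median 0.31, −0.28 with median-of-ratios scaling). Slc16a3, the lactate exporter MCT4, had 8.76 and 4.86 CPM in macrophages, against 231 and 153 CPM in neutrophils (−4.82, SE 0.79, adjusted p = 0.00424). Slc2a6, a sugar transporter, had 12.3 and 9.43 CPM in macrophages, against 200.2 and 70.1 CPM in neutrophils (−3.63, SE 0.81, adjusted p = 0.0361), with an adjusted p of 0.0623 and 0.124 without macrophage library 1 and 2, which left 1 lower member each time. Slc2a3, a high-affinity glucose transporter, had 10.1 and 13.5 CPM in macrophages, against 177 and 39.7 CPM in neutrophils (adjusted p = 0.213). Enzymes of the pathway did not pass. Gapdh had 1675 and 1203 CPM in macrophages, against 715 and 337 CPM in neutrophils (1.45, SE 0.49, adjusted p = 0.218). Without neutrophil library 1, 4 members were higher and 3 lower, and without neutrophil library 2, 4 were lower.

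Mitochondrial genes were higher by level in macrophages, yet none passed with all libraries. Over all tested genes, 44.2% had a positive fitted value and 22.7% had both macrophage libraries above both neutrophil libraries. Of 29 nuclear genes of the respiratory chain, all 29 had positive fitted values and 28 had both macrophage libraries above both neutrophil libraries (median 1.38). Of 21 genes of the tricarboxylic acid cycle these counts were 20 and 17 (median 1.15), and of 21 genes of fatty acid oxidation they were 19 and 16 (median 1.23). Cox5a, a subunit of cytochrome oxidase, had 236 and 157 CPM in macrophages, against 61.6 and 12.5 CPM in neutrophils (2.40, SE 0.66, adjusted p = 0.0950). Idh3g, of isocitrate dehydrogenase, had 338 and 303 CPM in macrophages, against 106 and 38.9 CPM in neutrophils (2.14, SE 0.54, adjusted p = 0.0685). Acaa2, of fatty acid oxidation, had 307 and 187 CPM in macrophages, against 90.04 and 23.4 CPM in neutrophils (2.12, SE 0.65, adjusted p = 0.154). Macrophage library 1 was the highest of the 4 libraries in all 3 genes. Of 23 genes of cholesterol and fatty acid synthesis none passed (median 1.49). Fasn, fatty acid synthase, had 40.2 and 18.9 CPM in macrophages, against 4.83 and 2.09 CPM in neutrophils (3.08, SE 0.93, adjusted p = 0.145). Medians of the respiratory chain, tricarboxylic acid cycle, fatty acid oxidation and synthesis genes were 1.83, 1.51, 1.95 and 2.04 without neutrophil library 1. They were 0.89, 0.83, 1.03 and 1.17 without neutrophil library 2. Without macrophage library 1 they were 1.04, 0.89, 0.85 and 1.26, and without macrophage library 2 they were 1.49, 1.21, 1.38 and 1.61. With all libraries, the numbers of genes at an unadjusted edgeR p under 0.05 were 20, 11, 8 and 11 in the same order. Of all 27759 tested genes, 3644 had such a p, and DESeq2 called 730 of them higher. In these 4 lists DESeq2 called 7, 2, 2 and 5 higher and weighted voom called none. With median-of-ratios scaling the medians of these 4 lists were 0.91, 0.78, 0.86 and 1.02.

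**Figure D5:**
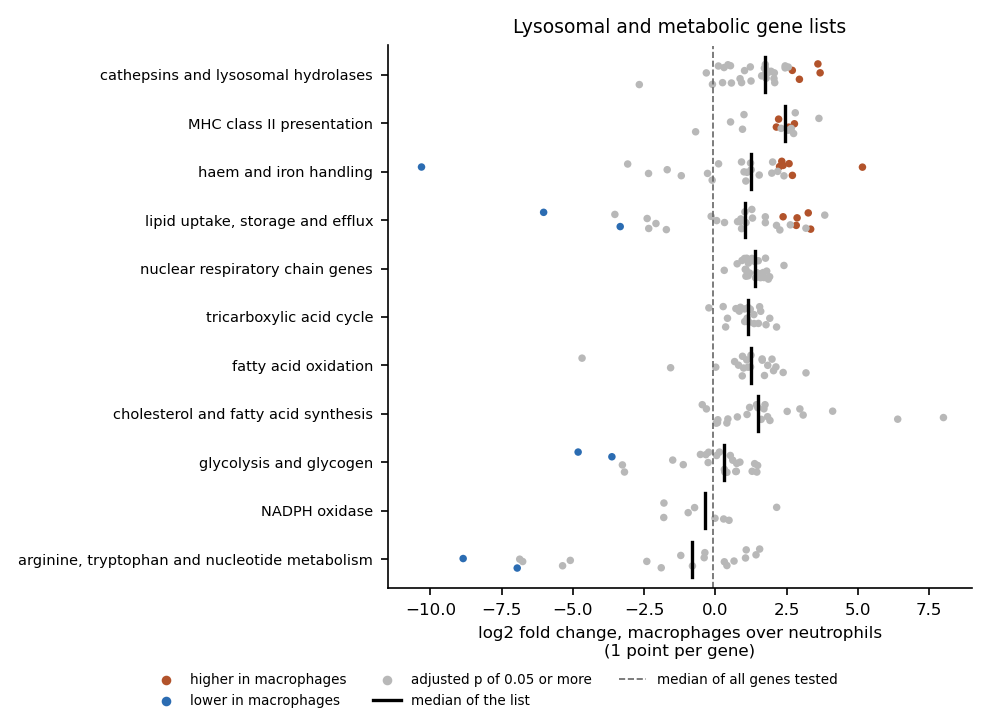
Log2 fold change of macrophages over neutrophils (horizontal axis, 1 point per gene) for each tested member of the lysosomal and metabolic gene lists, with called genes coloured, a bar at the median of each list and a dashed line at the median of all genes. Respiratory chain, tricarboxylic acid cycle, fatty acid oxidation and sterol synthesis genes lie mostly above 0 without a call, and the calls on both sides fall in haem and iron and in lipid genes.

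Amino acid and nucleotide metabolism had 2 of 19 genes lower and none higher (median −0.81). Hdc, which makes histamine, had 10.1 and 13.3 CPM in macrophages, against 2176 and 740.5 CPM in neutrophils (−6.96, SE 0.73, adjusted p = 0.000276). Acod1, which makes itaconate, had 0.123 and 1.05 CPM in macrophages, against 421 and 153 CPM in neutrophils (−8.85, SE 1.46, adjusted p = 0.00438). Acod1 was near 0 in macrophages, whereas Hdc was detected in both macrophage libraries. Arg1, arginase, which is also abundant in hepatocytes, had 136 and 13.1 CPM in macrophages, against 58.3 and 13.2 CPM in neutrophils (adjusted p = 0.564). Its fitted value was 1.05 with all libraries and −1.50 without macrophage library 1, the library with the highest hepatocyte marker sum. Nos2, inducible nitric oxide synthase, had 0 and 0.0953 CPM in macrophages, against 0.522 and 14.4 CPM in neutrophils, 1 against 73 counts (adjusted p = 0.326). NADPH oxidase genes gave no edgeR call among 8 (median −0.37), against 3 at an unadjusted edgeR p under 0.05. DESeq2 called 1 higher and 2 lower, and weighted voom called 1 lower. Over all 27759 tested genes, 3644 had such an unadjusted p, DESeq2 called 730 higher and 1801 lower, and voom called 336 lower. Cybb, the catalytic subunit, had 869 and 1309 CPM in macrophages, against 352 and 140 CPM in neutrophils (adjusted p = 0.0697), and Ncf1, a cytosolic subunit, had 159 and 236 CPM in macrophages, against 961 and 419.9 CPM in neutrophils (adjusted p = 0.110). Cybb passed without macrophage library 1 (adjusted p = 0.0162) and without neutrophil library 1 (adjusted p = 0.000139), and Ncf1 passed without neutrophil library 2 (adjusted p = 0.00165). Without either neutrophil library, 4 of the amino acid and nucleotide genes were lower.

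Of 32 transcription factors of macrophages and granulocytes, 3 were higher and none lower (median 0.26, −0.13 with median-of-ratios scaling), none passed in the fit of the 4 libraries and 1 was higher and 1 lower with weighted voom. Rxra, the partner of LXR alpha, had 233 and 225 CPM in macrophages, against 31.4 and 14.2 CPM in neutrophils (3.32, SE 0.72, adjusted p = 0.0307), and Nr1h3, described above among lipid genes, was also higher. Spi1, which encodes PU.1, had 836 and 475 CPM in macrophages, against 689 and 237 CPM in neutrophils, and the libraries overlapped (adjusted p = 0.714). Cebpe, of late granule formation, had 0.370 and 0 CPM in macrophages, against 30.5 and 5.23 CPM in neutrophils, 3 against 259 counts (adjusted p = 0.259). When neutrophil library 1 was left out, 11 factors were higher and 1 lower, and without neutrophil library 2 there were 4 each way.

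Growth factors acting on hepatocytes and vessels gave 1 higher and 1 lower gene of 28 (median −0.59), and none in the fit of the 4 libraries. Igf1, insulin-like growth factor 1, had 913 and 943 CPM in macrophages, against 106 and 91.2 CPM in neutrophils (3.24, SE 0.48, adjusted p = 0.00207). Bmp2, which endothelial cells of the sinusoid also make, had 20.0 and 11.7 CPM in macrophages, against 198 and 69.0 CPM in neutrophils (−3.08, SE 0.66, adjusted p = 0.0287, and 0.169 without macrophage library 2). Both had no overlap, and Bmp2 is itself a member of the endothelial marker list given above. Hgf, hepatocyte growth factor, had 15.3 and 24.4 CPM in macrophages, against 39.0 and 34.3 CPM in neutrophils (adjusted p = 0.529), and Hbegf had 82.0 and 134 CPM in macrophages, against 35.6 and 7.32 CPM in neutrophils (adjusted p = 0.352). In the fit without neutrophil library 1, 6 were higher and 2 lower.

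Of 34 interferon targets, 3 were lower and none higher (median 0.38, −0.06 with median-of-ratios scaling), and 1 was lower in the fit of the 4 libraries. The lower members were Slfn4, Slfn1 and Ifitm1, and the first pair are Schlafen genes with near-identical neighbours, so their values are uncertain. Ifitm1, a membrane protein that limits virus entry, had 63.1 and 57.5 CPM in macrophages, against 1218 and 286 CPM in neutrophils (−3.64, SE 0.65, adjusted p = 0.00803, and −2.38 without neutrophil library 1). Irf7, a factor induced by interferon, had 442 and 372 CPM in macrophages, against 201 and 37.9 CPM in neutrophils (adjusted p = 0.303). Of 26 apoptosis and survival genes, 2 were lower (median −0.03), none of them in the fit of the 4 libraries: Fas, given above, and the survival kinase Pim1, with 50.4 and 81.2 CPM in macrophages, against 1290.1 and 368 CPM in neutrophils (−3.65, SE 0.66, adjusted p = 0.00947). None of 28 cell cycle genes passed (median 1.65), although 21 had both macrophage libraries above both neutrophil libraries (22.7% of all tested genes did). An unadjusted edgeR p under 0.05 was found for 7 of them, and DESeq2 called 3 higher, with none by weighted voom. Over all 27759 tested genes, 3644 had such a p and DESeq2 called 730 higher. Tk1, a thymidine kinase of dividing cells, had 207 and 120.3 CPM in macrophages, against 27.3 and 33.2 CPM in neutrophils (2.44, SE 0.66, adjusted p = 0.0920). Without neutrophil library 1, 10 interferon targets, 5 cell cycle genes and 4 apoptosis genes were higher and 4 apoptosis genes were lower. Without neutrophil library 2 there were 5 lower interferon targets, 2 higher cell cycle genes and 4 lower apoptosis genes, and without macrophage library 2 there was 1 lower apoptosis gene.

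The other immune libraries place some of these levels. Setting them against the same macrophage or neutrophil libraries would share samples with the comparison above, so their levels are given side by side and were not compared. Mmp12 averaged 476 ± 18.5 CPM in DDC macrophages and 67.1 ± 49.96 CPM in DDC neutrophils (SD, n = 2 each), and 30.3 CPM in normal-diet macrophages. Igf1 averaged 928 ± 21.1 CPM in DDC macrophages and 98.4 ± 10.3 CPM in neutrophils, and 285 CPM in normal-diet macrophages. Clec4f averaged 8874 ± 1040 CPM in DDC macrophages and 515 ± 302 CPM in neutrophils, against 7653 CPM in normal-diet macrophages, 137 CPM in Ly6C-low and 77.9 CPM in Ly6C-high monocytes. Among the groups named, mean levels of this Kupffer cell gene were thus lowest in the monocytes. Il1b averaged 544 ± 271 CPM in DDC macrophages and 5454 ± 4108 CPM in neutrophils, and monocytes of both kinds lay near the macrophages, at 715 and 697 CPM. Osm averaged 17.4 ± 7.02 CPM in DDC macrophages and 149 ± 77.5 CPM in neutrophils, with 132 CPM in Ly6C-high monocytes. Il6 averaged 11.3 ± 9.57 CPM in DDC macrophages, 9.61 CPM in normal-diet macrophages, and 2.24 and 1.69 CPM in Ly6C-low and Ly6C-high monocytes.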

How the data were processed

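The authors deposited a table of raw gene counts for 12 immune cell libraries, of which the 2 labelled macrophage and the 2 labelled neutrophil from DDC-fed mice were compared. STAR, HTSeq, DESeq2 and the build mm10 are named per the submitters' processing notes, with neither role nor version. Strand handling is not given either, so reads of overlapping genes cannot be told apart. Per the labels' protocols, perfused livers gave cells sorted on a BD FACSAriaIII, and TruSeq libraries were made from Trizol-extracted RNA. Of the table's columns, 0 remained without a sample. The EGFP row entered neither library sizes nor tests. It held 0 counts in both macrophage libraries, and 3 and 0 in the neutrophil libraries. Hepatocyte libraries were not used here.

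The table held 51912 genes, 7434 of them at 0 in all immune libraries. Counts were fitted in R 4.3.3 with edgeR 4.0.16 (quasi-likelihood F test, TMM scaling, filterByExpr by group, 1 term per group over all 12 libraries, 6 residual degrees of freedom), which tested 27759 genes. Calls needed a p under 0.05 after Benjamini-Hochberg adjustment over every gene tested, and each adjusted p is from this test unless another is named. The SE is the absolute log2 fold change divided by the square root of F and is approximate. For 2 against 2 libraries the smallest permutation p is 0.333, so no such test was run. CPM are on TMM-scaled library sizes, with TMM factors of 0.794 and 0.812 in macrophages and 0.861 and 1.26 in neutrophils. Fold bounds use a floor of 3 counts over a group, and ratios with 1 to 3 counts carry 95% intervals, both for counting error only. A level per kilobase divides the mean by exon length. Gene symbols and positions are those of GENCODE M21 (GRCm38), promoters from RefSeq (GRCm38.p6).

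The comparison, the 43 gene lists and the tests were chosen with earlier results of these data known, so the lists are no independent support. The lists also share members: Slc40a1 and Nr1h3, for example, are Kupffer cell markers and are counted again among haem and lipid genes. Of 794 list genes, 776 were tested, 16 were too low and 2 were not found by symbol. Genes were named by rule: the 15 largest called fold changes in each direction, given 50 CPM or more in the higher group, groups apart and no predicted gene or pseudogene name, up to 6 called members per list and direction (or the 2 with the smallest p), and a set of cytokines and markers whatever their result. Members named without a call, such as Cd14, Ccl3, Cxcl2, Cd74, Lyz2, Fth1 and Hgf, were chosen after their values were seen. Alternatives were median-of-ratios factors, no filter, a replicate block, fewer libraries, DESeq2 1.42.0, limma 3.58.1 voom with library weights, a fold threshold, Gm10800 left out, and each compared library left out in turn. The code was tested on simulated counts. Some members of the lists are not reported here by name.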

Additional observations from a re-analysis of the deposited data

How the results depend on the processing

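The count of 312 called genes (145 higher and 167 lower in macrophages) was 539 with median-of-ratios factors (365 lower), 911 without a filter on low counts (451 higher, 460 lower), 74 in the fit of the 4 compared libraries alone (9 higher, 65 lower), and 2531 with DESeq2 (730 higher, 1801 lower). Without the T cell libraries 259 genes were lower, and with weighted limma voom 81 were higher and 336 lower. Leaving out 1 compared library gave 304 to 3046 called genes, 160 to 2414 higher and 144 to 632 lower. A fold threshold of 2 left all calls in place, and leaving Gm10800 out of library sizes gave 156 higher and 195 lower. DESeq2 again called all 145 higher and 166 of the 167 lower genes, and weighted voom called 60 and 166 of them. The cause of these differences was not tested.

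With the replicate number as a block, 380 genes were called, 175 higher and 205 lower, of which 141 and 165 were called without it. The replicate numbers do not pair the samples by label, and the differences between replicates correlated with r = 0.136 over genes between macrophages and neutrophils, with 2 pairs.

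Signs turned for genes that were not called. The log2 fold change of Clcf1 was −0.21 with median-of-ratios factors and with DESeq2, that of Il11 was −0.52 with the block and −0.12 with voom, and with voom that of Alb was −0.0828 and that of Ctf1 was 1.94. Over all alternative settings that tested the gene, the range was −1.50 to 2.36 for Arg1, −1.59 to 1.46 for Alb and −0.42 to 2.94 for Hpx. It was −0.94 to 1.17 for Il1a, −3.56 to 4.54 for Il11, −7.20 to 0 for Krt19 and −7.81 to 3.70 for Ly6g. For Lif it was −7.45 to 4.25, for Clcf1 −0.21 to 1.20 and for Ctf1 −1.79 to 6.96. Of 117 named genes with a call, 86 lost it in the fit of the 4 libraries, 26 with voom, 5 without the T cell libraries, 3 with median-of-ratios factors, 2 with the block and 1 with DESeq2. Neutrophil library 2 held 3817794 counts, the fewest of the compared libraries.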

Other observations

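The 2 subunits of calprotectin had unequal residual levels in macrophages. S100a8 had 285 and 204 CPM in macrophages, against 15480 and 6563 CPM in neutrophils, whereas S100a9 had 2.10 and 0 CPM in macrophages, against 6684 and 2402 CPM in neutrophils. Fpr1, a receptor for bacterial formyl peptides that is often used as a neutrophil marker, had 246 and 269.7 CPM in macrophages, which is 120% and 131% of the neutrophil mean, against 313 and 98.1 CPM in neutrophils.

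Erythroid transcripts differed between libraries of the same group. Hba-a1, a haemoglobin chain, had 908 and 279.7 CPM in macrophages, against 32.9 and 379.5 CPM in neutrophils, and Hbb-bs had 532 and 133 CPM in macrophages, against 1.04 and 181 CPM in neutrophils. Without neutrophil library 2, 5 of the 10 erythroid and platelet markers were higher in macrophages, against 1 with all libraries and none in the fit of the 4 libraries.

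Of 12 monocyte markers, Chil3 alone was lower, with 1.23 and 1.81 CPM in macrophages, against 368 and 28.9 CPM in neutrophils (−7.01, SE 1.20, edgeR adjusted p = 0.00563, and −4.35 without neutrophil library 1). No monocyte marker passed in the fit of the 4 libraries. Without neutrophil library 1, 4 monocyte markers were higher, and without neutrophil library 2, 3 were lower. Foxd4, a forkhead factor, had 0 and 0.0953 CPM in macrophages, against 72.6 and 45.8 CPM in neutrophils, and Ffar2, a receptor for short-chain fatty acids, had 0.123 and 0.0953 CPM in macrophages, against 161 and 31.2 CPM in neutrophils. Their counts of 1 and 2 in macrophages, against 775 and 1386 in neutrophils, give ratios of 1159 (95% counting interval 207 to 45822) and 1036 (286 to 8563). Mrgpra2b, whose reads may be shared with near-identical neighbours, had 1 count in macrophages, against 1289 in neutrophils, a ratio of 1927 (345 to 76173).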
